A study of Mus musculus with 54 samples.

Results

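The genes described here are 10 genes of iron handling in mouse liver: Hamp and Hamp2, Bmp6, Id1, Smad7, Tfrc, Tfr2, Trf, Fth1 and Ftl1. They are a list of named genes, picked with earlier results of these data known, and all 10 are among the 20162 rows of the deposited expression table, of which 11431 had a mean of at least 1 over all mice. Liver RNA came from 54 male C57BL/6J mice that were single housed and fed a high-fat diet from 8 weeks of age, so diet and housing are shared by every group, the control included. The mice took a gelatin pellet daily for 20 weeks: 14 control mice received a placebo pellet, and the others received DINP (di-isononyl phthalate), a plasticizer of polyvinyl chloride products, in the pellet. The doses were 1.5 (13 mice), 15 (13 mice) and 150 mg (14 mice) per kg of body weight and day, written as mg/kg from here on. No mice on a standard diet are compared here, and each library is 1 mouse, from RNA of the medial liver lobe.

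Hepcidin is a small peptide hormone that hepatocytes secrete, and it closes the only known cellular exit for iron by binding ferroportin, so that more hepcidin means less iron entering blood. Hepatocytes tune its gene to body iron mainly through bone morphogenetic protein (BMP) signals, above all BMP6 and BMP2 from sinusoidal endothelial cells, which act through SMAD proteins on Hamp and on shared target genes such as Id1 and Smad7. Transferrin receptor 2 senses iron-loaded transferrin, and inflammation adds a signal through STAT3. Inside the cell, iron regulatory proteins bind a hairpin in messenger RNAs, the iron-responsive element, and adjust ferritin translation and the stability of Tfrc mRNA.

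Mice carry a duplicated hepcidin gene, and the 2 copies lie in tandem on chromosome 7 of GRCm38 (GENCODE M21), Hamp at chr7:30942368-30944032 and Hamp2 at chr7:30922372-30924681, both on the minus strand and 17686 bases apart. Their 3′ UTRs, where a 3′ end library takes most of its reads, were 92.9% identical over 112 aligned columns. Reads that fall between the differences could be split between the genes, so that the separate levels of Hamp and Hamp2 are less certain than their sum.

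The promoters of the 2 hepcidin genes are shown because the values of the 2 genes were uncorrelated across the mice. The 150 bases before each RefSeq start (GRCm38.p6, minus strand) are chr7:30944030-30944179 for Hamp and chr7:30924182-30924331 for Hamp2. Capitals mark GGCGCC, a core of BMP-responsive elements, and TTCNNNGAA, the form of a STAT site, each searched on both strands.
Hamp: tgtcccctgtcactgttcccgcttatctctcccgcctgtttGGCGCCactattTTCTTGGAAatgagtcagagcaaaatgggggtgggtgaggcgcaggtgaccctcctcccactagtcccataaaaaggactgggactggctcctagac
Hamp2: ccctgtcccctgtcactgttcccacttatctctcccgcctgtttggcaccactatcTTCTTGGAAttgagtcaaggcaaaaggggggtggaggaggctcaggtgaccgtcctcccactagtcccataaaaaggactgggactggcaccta
Over the 250 bases before the start, Hamp held GGCGCC and Hamp2 did not, and 9.59% of 32851 RefSeq promoters held it. TTCNNNGAA stood in both, and in 7.02% of all promoters. The 2 promoters were 88.2% identical over 153 aligned columns, and a match or its absence in these letters says nothing of what binds there.

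The iron-responsive elements found in the set are short enough to show. They mark mRNAs that iron regulatory proteins can bind, and do not tell whether a gene answers to iron through its promoter. The search took a C, 5 bases, CAGTGN and 5 bases pairing with the first 5 (A, C or T as the last base of the loop, G with T pairing allowed) in the longest protein-coding transcript. Capitals mark the 6-base loop.
Fth1, 5′ UTR, chr19:9982734-9982758, plus strand: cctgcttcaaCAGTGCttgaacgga
Ftl1, 5′ UTR, chr7:45459781-45459805, minus strand: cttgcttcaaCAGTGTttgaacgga
Tfrc, first of 4 in the 3′ UTR, chr16:32631221-32631245, plus strand: ttatcggaagCAGTGCcttccataa
Fth1 and Ftl1 held 1 element each, Tfrc held 4, and no match was found in Hamp, Hamp2, Trf or Tfr2. Bmp6, Id1 and Smad7 were not searched.

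RNA was read from its 3′ ends (QuantSeq), and the deposited values are TPM that the authors rounded and scaled between samples. Below, a value is on that scale and a difference is on log2(value + 1), where it understates the change of low genes. Sequencing depth cannot be read from the table. The sums of hepatocyte, endothelial, Kupffer and red blood cell markers overlapped between all groups. The median endothelial sum was 106 in control and 107, 96.4 and 111 at the rising doses, and the median red blood cell sum was 813, 518, 873 and 749. In bulk liver, fewer cells of a type and less RNA per cell cannot be told apart. A set of 8 libraries stood apart by a measure that uses none of the 10 genes, the mean log2 value of genes with transcripts under 1000 bases minus that of genes over 3000 bases: it was 0.18 to 0.56 in control replicate 1, replicates 4 to 9 at 15 mg/kg and replicate 10 at 150 mg/kg, against -0.21 to 0.08 in the other 46. Ribosomal protein mRNAs summed to 19362 to 26232 in these 8 libraries and to 12373 to 17391 in the others. The limit on this measure was set after the data were seen, and results are given with and without the 8 libraries where they matter. A further 5 libraries, singled out after the values were seen, replicates 1, 4, 9, 10 and 13 at 1.5 mg/kg, had the lowest totals of their group (849922 to 915170, against 948501 to 1005970 in the other 8). Their hepatocyte marker sums were lower (29937 to 39923 against 41701 to 49880), and their stellate cell marker sums ran from 157 to 266, against 142 to 188. Low totals occurred in other groups too, as in control replicates 8 (747258) and 9 (857726) and replicate 7 at 15 mg/kg (849928). The stellate sums of these libraries were 289, 274 and 315. They were kept where the 5 at 1.5 mg/kg were left out.

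**Figure D1:**
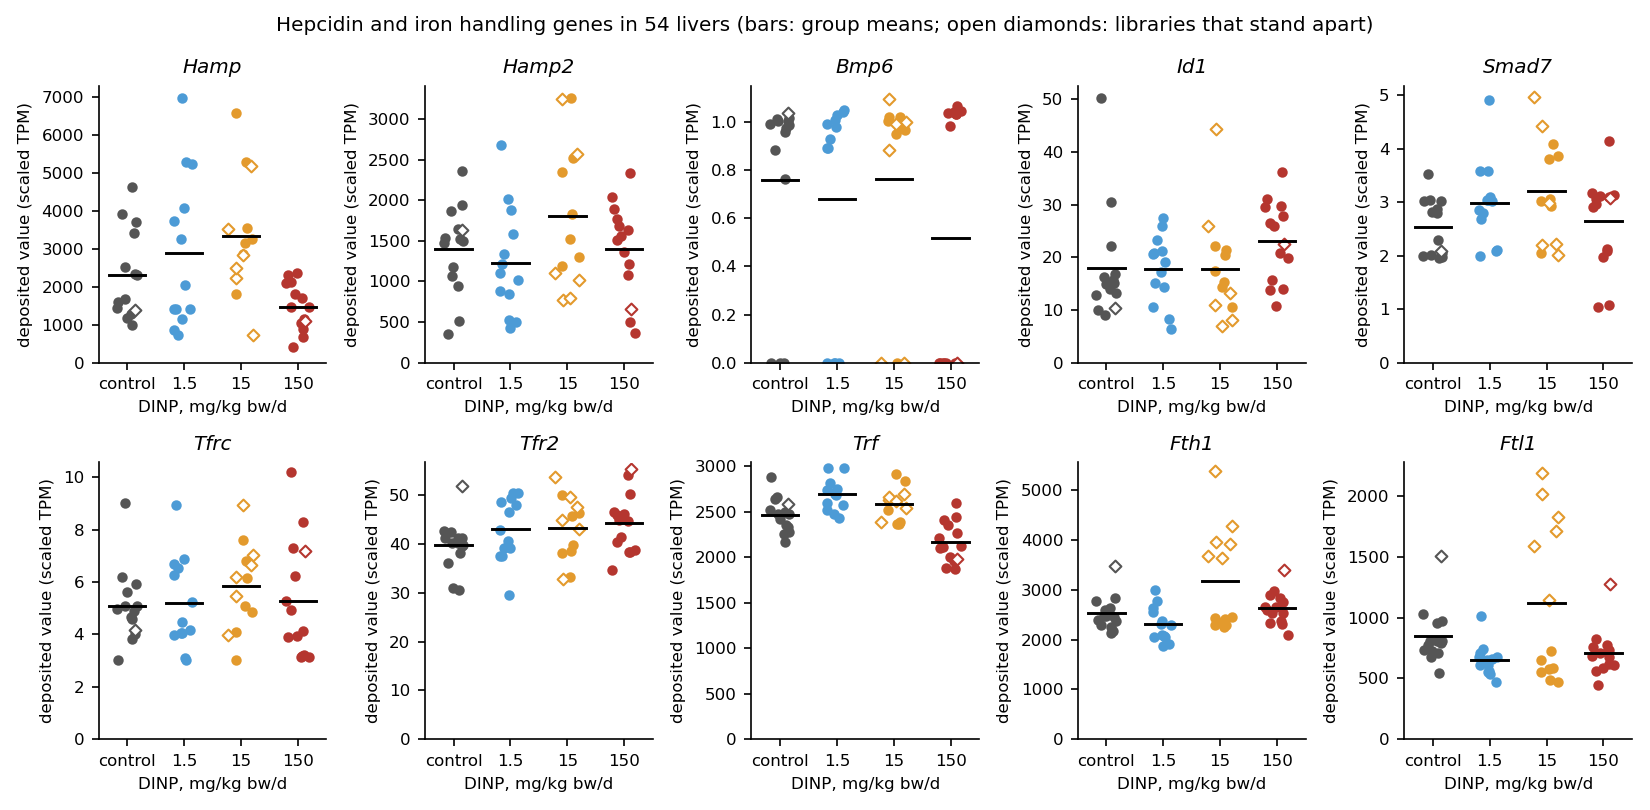
Deposited value (scaled TPM, linear axis from 0) of each of the 10 genes in every mouse by DINP dose. Points are mice, bars are group means, and open diamonds are the 8 libraries that stand apart. Hamp varied widely in every group and was compressed below 2356 at 150 mg/kg, Trf was tight and lowest at 150 mg/kg, and Fth1 and Ftl1 formed 2 separate ranges at 15 mg/kg.

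Against control, little of the set moved. No member passed the test at 1.5 or at 15 mg/kg, and at 150 mg/kg Trf, the mRNA of the plasma iron carrier transferrin, was lower. Hamp itself was highest at 15 mg/kg and lowest at 150 mg/kg, and these 2 doses differed from each other while neither passed against control. The counts of members called (limma, Benjamini-Hochberg adjusted p under 0.05, 9 of the 10 tested) were 0 at 1.5 mg/kg, where 1.20% of all tested genes were called, 0 at 15 mg/kg, where 14.2% were, and 1 at 150 mg/kg, where 2.17% were. With an unadjusted p under 0.05 there was 1 at 1.5 mg/kg (Trf) and 1 at 15 mg/kg (Fth1), and a rank-sum test across all genes called no member at any dose. The median log2 fold change of the 9 members was 0.03, 0.21 and 0.00 at the rising doses, beside 0.00, 0.00 and -0.01 over all tested genes. The p-values measure the spread between single mice.

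**Figure D2:**
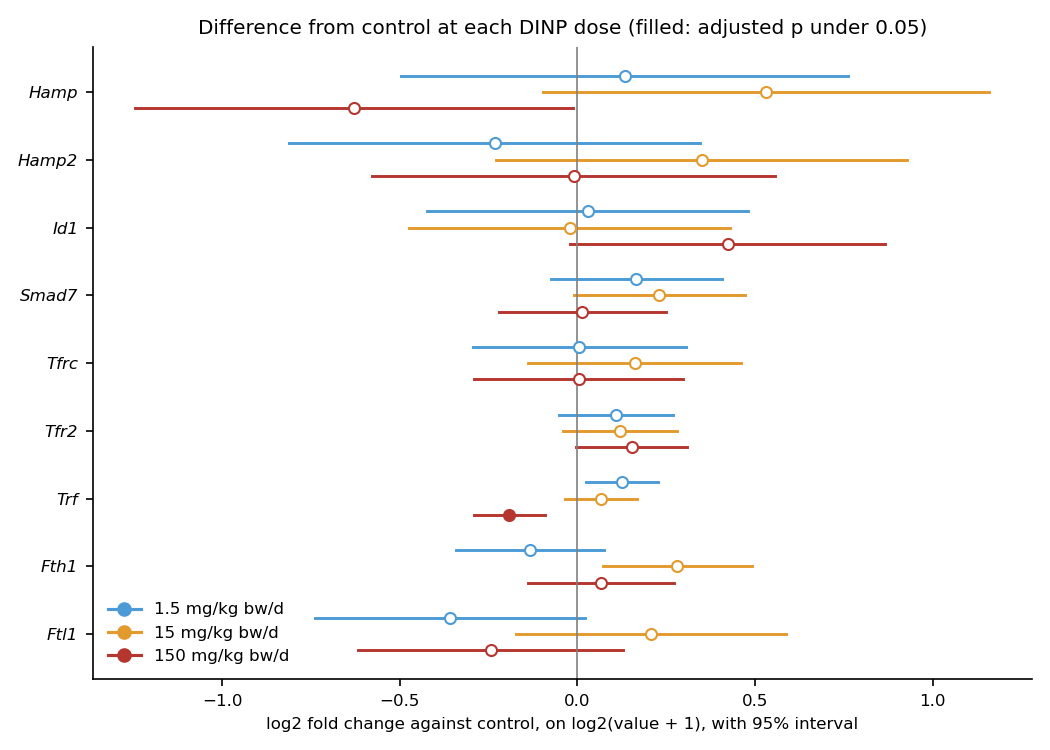
Log2 fold change of the 9 tested genes against control at each dose, on log2(value + 1), with 95% intervals. Filled points have an adjusted p under 0.05. The single filled point is Trf at 150 mg/kg, and the widest intervals are those of Hamp and Hamp2.

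Hamp, the hormone gene, had values of 991 to 4630.0 in control mice (median 1984, mean 2309 ± 1171, SD, n = 14). At 1.5 mg/kg it ran from 719 to 6969 (median 2057, mean 2891 ± 2029.7, n = 13), and from 719 to 1414 in the 5 libraries of low total against 1405 to 6969 in the other 8. At 15 mg/kg it ran from 739 to 6587 (median 3152, mean 3349 ± 1567, n = 13), and 11 of 13 mice lay above the control median. At 150 mg/kg the range was 424 to 2356 (median 1464, mean 1473 ± 619, n = 14), with 10 of 14 mice below the control median and none above the control maximum. The 4 ranges overlapped, and the high values seen in the other groups were missing at the highest dose: 5 control mice, 6 mice at 1.5 mg/kg and 10 mice at 15 mg/kg exceeded every mouse at 150 mg/kg.

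The log2 fold change of Hamp against control was 0.13 at 1.5 mg/kg (SE 0.313, adjusted p = 0.917), 0.53 at 15 mg/kg (adjusted p = 0.274) and -0.63 at 150 mg/kg (95% interval -1.24 to -0.01, unadjusted p = 0.0461, adjusted p = 0.342, limma). None passed. Ordered by median, 150 mg/kg was followed by control, 1.5 and 15 mg/kg, and no neighbours in that order passed the test after adjustment. Its spread within groups was large, with a residual SD of 0.84 on the log2 scale against a median of 0.32 over all tested genes, which puts it at percentile 95.6.

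Between doses, Hamp passed the test for 15 against 150 mg/kg alone. Hamp was 2.23-fold higher at 15 than at 150 mg/kg (log2 difference 1.16, SE 0.313, 95% interval 0.53 to 1.79, adjusted p = 0.00578, limma), and 0 of 14 mice at 150 mg/kg reached the median at 15 mg/kg. In this contrast 2 of the 9 tested members, Hamp and Trf, were called, where 20.0% of all tested genes were, a count near the background. The difference was as large without the 8 libraries that stand apart (1.38, adjusted p = 0.0150, where 8.34% of all tested genes were called), and with each mouse left out in turn it stayed between 1.03 and 1.33 with a highest adjusted p of 0.0133. Between the lowest and the highest dose the log2 difference of Hamp was 0.76 (95% interval 0.13 to 1.39, adjusted p = 0.169), which did not pass. Without the 5 libraries of low total at 1.5 mg/kg it was 1.43 (95% interval 0.79 to 2.08, adjusted p = 0.00404), and Hamp and Trf were then called, where 5.39% of all tested genes were. These 5 libraries were singled out after the values were seen, in this dose alone, and hold low Hamp values. Leaving them out raises the mean of the dose, so the call of Hamp cannot be read as a result. Against control Hamp then gave 0.81 (adjusted p = 0.166).

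Hamp2, the second hepcidin gene, whose peptide is not known to regulate iron in the same way, had medians of 1508 in control and 1103, 1518 and 1538 at the rising doses, with ranges of 352 to 2357, 427 to 2678, 772 to 3262 and 367 to 2331. The ranges lay over one another in all 4 groups. Its log2 fold changes against control were -0.23, 0.35 and -0.01 (adjusted p = 0.814, 0.462 and 0.991), and 15 against 150 mg/kg gave 0.36 (95% interval -0.22 to 0.94, adjusted p = 0.408). Whether the 2 genes differed in their response was tested on log2 Hamp minus log2 Hamp2 in each mouse, a comparison chosen after the values were seen: it was 0.89 ± 0.99 at 15 and 0.09 ± 1.05 at 150 mg/kg (difference 0.80, 2-sided permutation test with 100000 resamples, p = 0.0530, n = 13 and 14), and 0.71 ± 1.06 in control (difference at 150 mg/kg -0.62, p = 0.135). A separate response of the 2 genes was thus not shown. Their sum, which does not depend on how reads were split, averaged 3703 ± 1248 in control and 4123 ± 2127, 5153 ± 1822 and 2875 ± 904 at the rising doses.

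Bmp6, the BMP that iron raises in liver endothelium, was at the floor of the table. Its mean was 0.68, no mouse exceeded 1.10, and it was listed at 0 in 17 of 54 mice: 3 of 14 control mice, 4 of 13 at 1.5, 3 of 13 at 15 and 7 of 14 at 150 mg/kg. It was therefore outside the tested genes. In a fit of all 20162 rows its adjusted p against control was 0.954, 1 and 0.642. Bmp2, the other endothelial BMP and part of the wider list below, was measurable (medians 8.76, 8.96, 8.75 and 8.46) and did not pass at any dose (log2 fold changes -0.04, -0.19 and -0.01, adjusted p = 0.919, 0.197 and 0.974).

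Neither BMP target gene of the set passed at any dose. Id1, an inhibitor of helix-loop-helix transcription factors, had medians of 15.0, 19.2, 15.3 and 24.3 from control to the highest dose, with ranges of 9.03 to 50.3, 6.30 to 27.5, 6.95 to 44.3 and 10.8 to 36.2. At 150 mg/kg, 11 of 14 mice lay above the control median, none above the control maximum, and the log2 fold change of 0.42 did not pass (95% interval -0.02 to 0.87, unadjusted p = 0.0608, adjusted p = 0.386). Hamp and Id1 thus had opposite signs at this dose, neither past the test. Smad7, which feeds back on BMP signalling, averaged 2.53 ± 0.54, 2.98 ± 0.77, 3.20 ± 0.97 and 2.64 ± 0.87, with log2 fold changes of 0.17, 0.23 and 0.01 (adjusted p = 0.619, 0.208 and 0.975).

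Neither transferrin receptor passed at any dose. Tfrc, the receptor that takes up iron-loaded transferrin and whose mRNA carries the 3′ hairpins, averaged 5.08 ± 1.42 in control and 5.18 ± 1.75, 5.83 ± 1.64 and 5.29 ± 2.24 at the rising doses. Its log2 fold changes were 0.01, 0.16 and 0.00, with 95% intervals of -0.29 to 0.30, -0.14 to 0.46 and -0.29 to 0.30. Tfr2, the hepatocyte sensor, averaged 39.7 ± 5.19, 43.1 ± 6.41, 43.4 ± 6.45 and 44.3 ± 6.10, and its log2 fold changes of 0.11, 0.12 and 0.15 missed the threshold (adjusted p = 0.623, 0.344 and 0.377). The upper ends of the Tfr2 intervals were 0.27, 0.28 and 0.31.

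Trf was the steadiest member and the only one called against control. Transferrin is made by hepatocytes and carries ferric iron in plasma, and the gene lies at chr9:103204001-103230444 on the minus strand. Control values ran from 2163 to 2882 (median 2468, mean 2465 ± 189, n = 14), those at 1.5 mg/kg from 2434 to 2983 (median 2696, mean 2688 ± 174, n = 13) and those at 15 mg/kg from 2364 to 2912 (median 2614, mean 2579 ± 176, n = 13). At 150 mg/kg they ran from 1866 to 2599 (median 2115, mean 2163 ± 226, n = 14). Of these 14 mice, 13 lay below the control median and 8 below every control mouse.

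Trf fell at 150 mg/kg by 0.19 on the log2 scale (0.876-fold, SE 0.0496, 95% interval -0.29 to -0.09, adjusted p = 0.0234, limma). The change is small, and the spread was smaller still: the residual SD of Trf, 0.115 on the log2 scale, was at percentile 0.175 of all tested genes. It remained called with each mouse left out in turn (highest adjusted p 0.0484, without control replicate 7) and without the 8 libraries (-0.18, adjusted p = 0.0385), but not with all rows tested, in the rank-sum test, or where a log2 fold change beyond 0.5 was also asked. Against the other doses the gap was wider: Trf was 1.25-fold higher at 1.5 than at 150 mg/kg (log2 difference 0.32, adjusted p = 4.49e-05), the only member called there beside 4.61% of all tested genes, and 1.20-fold higher at 15 than at 150 mg/kg (0.26, adjusted p = 0.000179). At 1.5 mg/kg, 12 of 13 mice lay above the control median, and the log2 fold change of 0.13 did not pass (unadjusted p = 0.0156, adjusted p = 0.260).

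The ferritin subunits, heavy chain Fth1 (chr19:9980598-9985098, plus strand) and light chain Ftl1 (chr7:45457944-45459884, minus strand), build the shell that stores iron. At 15 mg/kg both split into 2 ranges with nothing between. In the 6 libraries of that group that stand apart, Fth1 ran from 3638 to 5388 and Ftl1 from 1146 to 2190.2. In the other 7, Fth1 ran from 2263 to 2459 and Ftl1 from 466 to 728. Control replicate 1 (Fth1 3471, Ftl1 1508) and replicate 10 at 150 mg/kg (3407 and 1276), the other libraries that stand apart, were also the highest of their groups. Hamp showed no such split, with values of 739 to 5199 in the same 6 libraries.

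**Figure D3:**
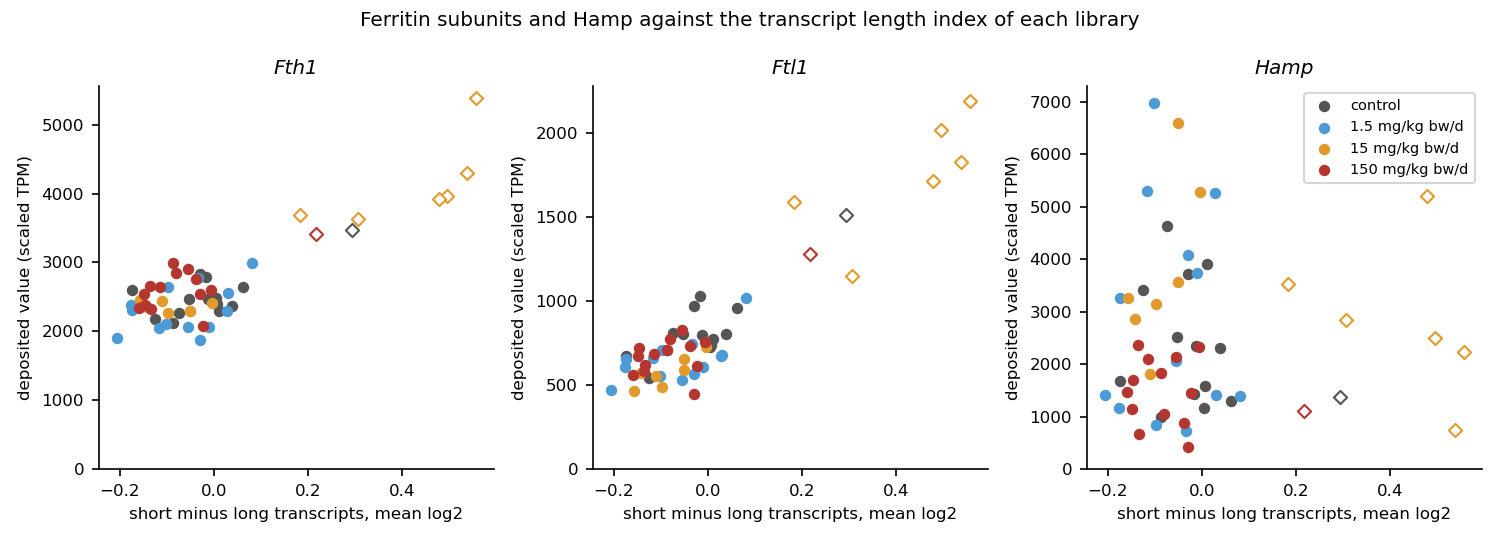
Deposited values of Fth1, Ftl1 and Hamp (scaled TPM, linear axis from 0) against the mean log2 value of short minus long transcripts in each library, colours by dose. Open diamonds are the 8 libraries that stand apart, with an index from 0.18 upward. Fth1 and Ftl1 are higher in these 8 libraries than in each of the others, and Hamp is not.

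With all libraries, Fth1 against control gave log2 fold changes of -0.13, 0.28 and 0.07 (unadjusted p = 0.00931 and adjusted p = 0.0603 at 15 mg/kg), and Ftl1 gave -0.36, 0.21 and -0.24 (adjusted p = 0.439, 0.514 and 0.597). At 15 mg/kg Fth1 passed when control replicate 1 or any of replicates 1, 2, 3, 10, 11, 12 and 13 of the dose was left out, with a lowest adjusted p of 0.0283. Without the 8 libraries the direction turned: Fth1 gave -0.05 (adjusted p = 0.753) and Ftl1 was lower than control (-0.45, 95% interval -0.68 to -0.22, adjusted p = 0.0108), 1 of 9 members called where 5.31% of all tested genes were. With the length index as a covariate Ftl1 gave -0.23 (adjusted p = 0.115).

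Between 1.5 and 15 mg/kg, both ferritin genes were lower at 1.5 mg/kg (Fth1 -0.41, adjusted p = 0.00343, and Ftl1 -0.57, adjusted p = 0.0291). These were 2 of 9 members where 21.4% of all tested genes were called, a count near the background. Without the 8 libraries neither passed (-0.04 and 0.16, adjusted p = 0.808 and 0.469), where 5.06% of all tested genes did. The source of the split among the libraries was not tested. The light chain carries a further limit, because Ftl1-ps2, a processed pseudogene 97.8% identical to Ftl1 over 549 aligned bases, has its own row and followed it (means 537, 375, 971 and 429), and reads of the pair could be divided either way. Their sum averaged 1382 ± 417 in control and 1027 ± 229, 2088 ± 1425 and 1142 ± 305 at the rising doses. Without the 8 libraries the sum averaged 1288 ± 236 in control, 937 ± 158 at 15 and 1074 ± 176 at 150 mg/kg. Ftl1-ps2 alone then averaged 494, 359 and 405.

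Across individual mice, Hamp was not shown to go with any of the other tested members. After subtraction of group means on the log2 scale, none of the other 8 tested members was associated with Hamp at an adjusted p under 0.05 (limma with Hamp as covariate, 54 mice), where 3.03% of 11430 genes were. Of these members, 2 had an unadjusted p under 0.05. For Tfr2, Pearson r was 0.32 (permutation p = 0.0238) and Spearman rho 0.37 (permutation p = 0.00761), with r = 0.33 without the 2 mice farthest from the median of Hamp and an adjusted p of 0.201. For Fth1, r was -0.33 (permutation p = 0.0149) and rho -0.30 (permutation p = 0.0301), with r = -0.35 without these 2 mice and an adjusted p of 0.174. Without the 5 libraries of low total at 1.5 mg/kg, r was 0.16 for Tfr2 and -0.20 for Fth1, and Tfr2 itself went with the hepatocyte marker sum (r = 0.69). For Hamp2 r was 0.03 (permutation p = 0.849) and rho 0.06 (permutation p = 0.666). Id1 and Smad7, the BMP targets, gave r = 0.15 and 0.13 (permutation p = 0.307 and 0.370).

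Among the 84 tested genes of the 5 iron lists, 3 passed in the same fit, 3.57% beside the 3.03% of all genes, a share near the background. Without the 5 libraries of low total at 1.5 mg/kg, 1 passed, Id3, and 2 of all genes did. Id3, a further BMP target of the Id family, rose with Hamp (r = 0.53, permutation p = 6e-05, adjusted p = 0.00926). Its rho was 0.50 (permutation p = 0.00011), r without the 2 farthest mice was 0.45, and r was positive within each group, from 0.44 to 0.69. Without the 5 libraries it was 0.61 (adjusted p = 0.0226), and its r with the stellate and hepatocyte marker sums was 0.01 and 0.02. Hjv, the BMP co-receptor hemojuvelin, went the other way (r = -0.45, permutation p = 0.00071, rho = -0.45, permutation p = 0.00093, adjusted p = 0.0354), and r was -0.43 without the 2 farthest mice and -0.34 without the 5 libraries (adjusted p = 0.476). So did Lcn2, the siderophore-binding lipocalin that inflammation raises (r = -0.48, permutation p = 0.00122, rho = -0.48, permutation p = 0.00092, adjusted p = 0.0208), and r was -0.45 without the 2 farthest mice. Lcn2 was 45.6 to 62.6 in the 5 libraries of low total and 0 to 4.20 in the other 8 of that dose, and without the 5 its r with Hamp was -0.24 (adjusted p = 0.630). Over all mice Lcn2 had r = 0.61 with the stellate and -0.59 with the hepatocyte marker sum, and Hjv 0.45 and -0.36. The part of these libraries and cell types in the associations was not tested.

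Id3 was lower at each dose than in control by 0.54, 0.38 and 0.54 on the log2 scale in the fitted means, without passing the test (medians 130.1, 86.8, 83.9 and 82.1, adjusted p = 0.177, 0.183 and 0.119).

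**Figure D4:**
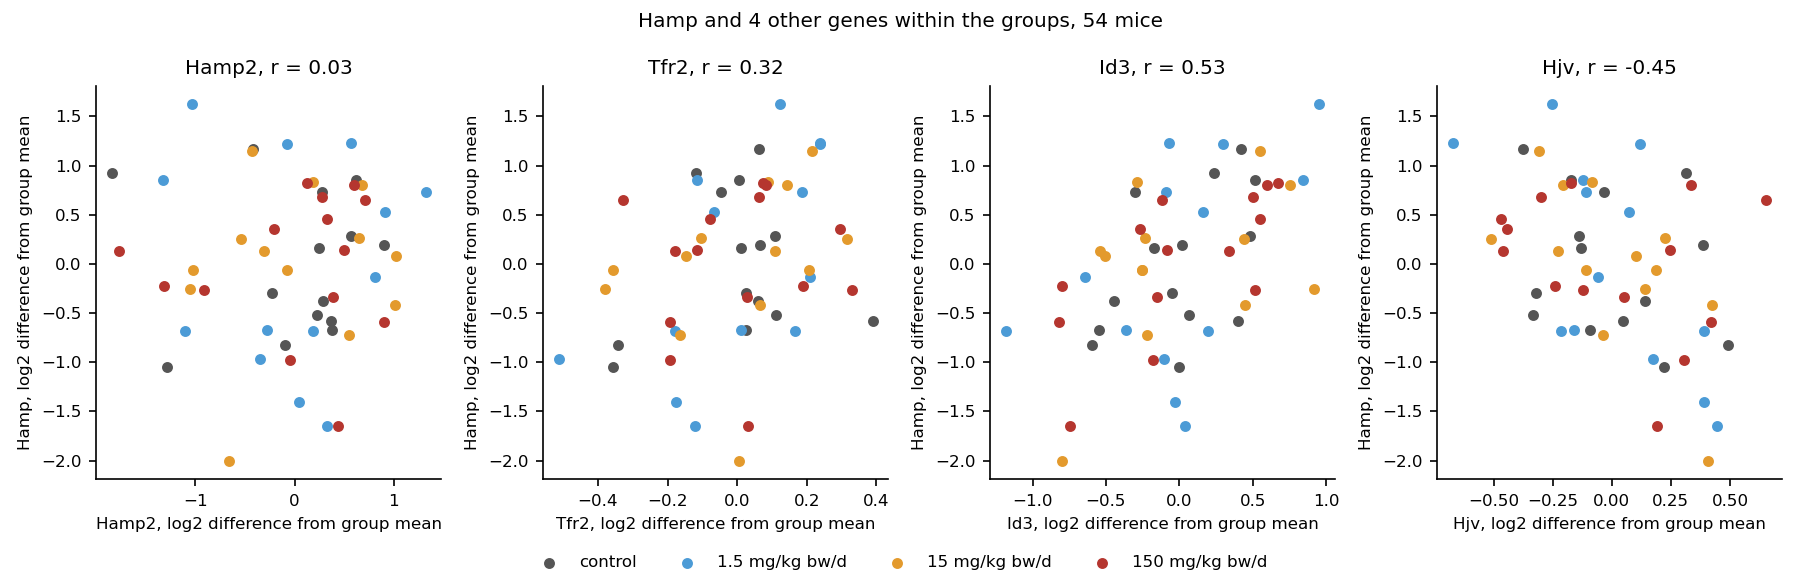
Hamp against Hamp2, Tfr2, Id3 and Hjv in 54 mice, each as log2(value + 1) minus the mean of its group, colours by dose. The cloud of Hamp and Hamp2 has no slope (r = 0.03), and the clouds rise with Id3 (r = 0.53) and Tfr2 (r = 0.32) and fall with Hjv (r = -0.45).

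The genes whose values followed Hamp most closely among the 6931 with a mean of at least 5 were Cyp2c23 (r = 0.67), Wdr5 (0.60), Ptprk (0.59), Mier3 (0.58), Ccdc117 (0.58), Rxra (0.57), Cps1 (0.56) and Notum (0.56), each over the same 54 mice and after subtraction of group means. Cyp2c23 is a liver cytochrome P450, Rxra a nuclear receptor and Cps1 the entry enzyme of the urea cycle. None belongs to the iron lists. Without the 5 libraries of low total at 1.5 mg/kg, r of these 8 genes ran from 0.36 (Cps1) to 0.53 (Cyp2c23).

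The wider iron pathway was described by 5 lists with 95 genes, of which 92 were in the table and 84 were tested. At 1.5 mg/kg 5 were higher and 1 lower (7.14%, against 1.20% of all tested genes), at 15 mg/kg 10 were higher and 6 lower (19.0%, against 14.2%), and at 150 mg/kg 3 were higher and 1 lower (4.76%, against 2.17%). The median log2 fold change of the 84 genes was -0.01, 0.03 and 0.02. Without the 8 libraries the counts were 5 and 1, 3 and 4, and 4 and 3, beside 2.53%, 5.31% and 3.62% of all tested genes.

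Ireb2, which encodes iron regulatory protein 2, was the 1 gene of the lists called at all 3 doses. Its values were 7.94 to 15.8 in control (median 12.3), 10.2 to 25.7 at 1.5 (median 15.2), 11.1 to 22.4 at 15 (median 14.9) and 10.4 to 24.0 at 150 mg/kg (median 17.6). The ranges overlapped, and 13 of 14 mice at 150 mg/kg lay above the control median and 8 above every control mouse. Its log2 fold changes were 0.47, 0.41 and 0.55 (adjusted p = 0.0291, 0.0121 and 0.00239), the 3 sharing the control mice, and without the 8 libraries 0.46, 0.58 and 0.54 (adjusted p = 0.0217, 0.00771 and 0.00379). The call at 1.5 mg/kg was lost in 5 of 27 fits without 1 of the mice (highest adjusted p 0.0685, without replicate 8 of the dose), and the rank-sum test kept the call at 150 mg/kg alone. The partner protein, iron regulatory protein 1 (Aco1), was higher at 15 mg/kg with all libraries (0.21, adjusted p = 0.0117) and not without the 8 (0.12, adjusted p = 0.260).

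At 150 mg/kg the other calls were in iron delivery and heme transport. Pcbp1, an RNA-binding protein that also chaperones iron to ferritin, fell by 0.40 on the log2 scale (median 73.6 against 95.8 in control, adjusted p = 0.000502), and 11 of 14 mice lay below every control mouse. Abcg2, an exporter of heme and other substrates, rose by 0.46 (median 83.7 against 58.6, adjusted p = 0.00121), with 10 of 14 mice above every control mouse. Lrp1, a large endocytic receptor that takes up heme bound to hemopexin among many ligands, rose by 0.60 (median 34.5 against 23.2, adjusted p = 0.0142), with all 14 mice above the control median. These 3 calls held with each mouse left out and without the 8 libraries. Hpx, hemopexin itself, did not pass in the main fit (-0.50, adjusted p = 0.156) and was lower without the 8 (-0.51, adjusted p = 0.00219). With all libraries it was also lower in the rank-sum test (adjusted p = 0.0204). The same held in limma with only the 2 groups compared (adjusted p = 0.00928) and with the length index as a covariate (adjusted p = 0.0490). Furin, of the hepcidin regulator list, and Blvrb, of the heme list, were likewise not called in the main fit and called without the 8. Furin was then lower (-0.23, adjusted p = 0.0472) and Blvrb higher (0.19, adjusted p = 0.0269). Both were also called with the length covariate (limma, adjusted p = 0.00379 and 0.0176), and Blvrb with only the 2 groups compared (adjusted p = 0.0496).

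At 1.5 mg/kg the 6 calls were Ireb2, 2 genes of heme breakdown, 2 of iron uptake and export and 1 mitochondrial carrier. Blvra, biliverdin reductase A, rose by 0.55 (median 12.5 against 8.48, adjusted p = 0.00387), with 10 of 13 mice above every control mouse. Hmox2, the constitutive heme oxygenase, rose by 0.32 (51.5 against 44.5, adjusted p = 0.0460), Cp, the ferroxidase ceruloplasmin, by 0.26 (380.1 against 306, adjusted p = 0.0426), and Slc25a28, the mitochondrial iron carrier mitoferrin 2, by 0.30 (32.3 against 26.4, adjusted p = 0.0460). The calls of Hmox2, Cp and Slc25a28 lay near the threshold and were lost in 22, 19 and 22 of 27 fits that each dropped a mouse. Flvcr2, a membrane transporter near the floor of the table, was lower (-0.74, median 0.895 against 1.39, adjusted p = 0.0228). Without the 5 libraries of low total at this dose, Cp did not pass (0.20, limma adjusted p = 0.141), and the other calls stayed. The lists then had 4 genes higher and 4 lower, beside 3.01% of all tested genes.

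At 15 mg/kg the 16 calls covered every list, and 12 of them were lost without the 8 libraries. Higher were the heme enzymes Alad, Blvra and Uros (0.38, 0.46 and 0.50), the BMP signal transducer Smad1 (0.28), Aco1 and Ireb2, and Lrp1 (0.42). The iron-sulfur cluster genes Iscu, Hspa9 and Fdx2 were higher too (0.50, 0.19 and 1.02). Fdx2 was near the floor, with means of 0.787, 0, 3.64 and 0.220 from control to the highest dose. It thus reached the mean of 1 through this dose, where it averaged 7.22 in the 6 libraries that stand apart and 0.577 in the other 7. Lower were Furin (-0.43), a protease that cleaves prohepcidin and hemojuvelin, the BMP target Id2 (-0.31), Stat3 (-0.32), Herc2 (-0.39), Flvcr2 (-0.53) and Slc48a1 (-0.37), a heme transporter of lysosomes. Without the 8 libraries Blvra (0.50, adjusted p = 0.0185), Ireb2, Lrp1 (0.73, adjusted p = 0.00450) and Stat3 (-0.34, adjusted p = 0.0437) were called of these 16, and Fdx2 gave -0.04, Furin -0.03, Herc2 0.00, Id2 -0.08, Iscu 0.12, Hspa9 0.13 and Alad 0.18. Smad1 (0.28), Slc48a1 (-0.34), Flvcr2 (-0.57) and Uros (0.37) kept most of their difference without passing in these fewer mice (adjusted p = 0.0743, 0.0842, 0.102 and 0.148). With the length index as a covariate, which keeps all mice, 8 list genes were higher and 6 lower, beside 8.63% of all tested genes. Of the 12 lost calls, Alad, Iscu, Hspa9, Uros, Smad1 and Slc48a1 then passed (limma, adjusted p = 0.0232, 0.0359, 0.0405, 0.0437, 0.0217 and 0.0261). Aco1, Fdx2, Furin, Herc2, Id2 and Flvcr2 did not (adjusted p from 0.0568 to 0.413). With single mice left out, Lrp1 and Id2 each lost the call in 16 of 27 repeats, Herc2 in 13, Flvcr2 in 7 and Fdx2 in 4. Newly called without the 8 libraries were Hpx (-0.66), Tspo (-0.43) and Ciapin1 (-0.49). Of the cell type markers, 1 of 8 endothelial (Pecam1, -0.52), 1 of 7 Kupffer cell (Csf1r, -0.60) and 1 of 6 hepatocyte markers (Ttr, 0.42) were called at this dose with all libraries. Of all tested genes, 14.2% were called there. No marker was called at 1.5 or 150 mg/kg, where 1.20% and 2.17% of all tested genes were. The part of these cell types in the values was not tested.

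**Figure D5:**
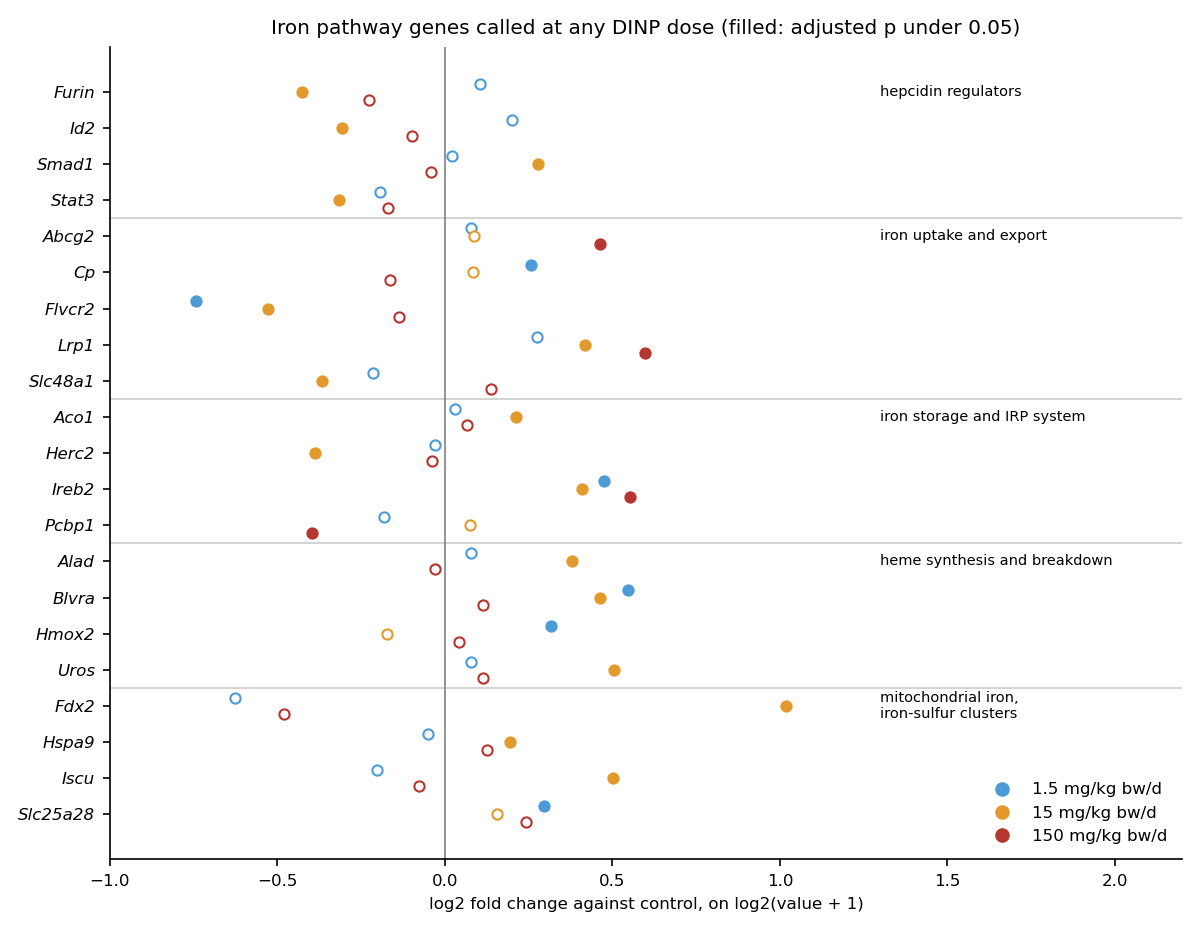
Log2 fold change against control, on log2(value + 1), of the 21 iron pathway genes called at any dose, grouped by list. Filled points have an adjusted p under 0.05. Ireb2 is filled at all 3 doses, Pcbp1 and Abcg2 at 150 mg/kg alone, and most filled points belong to 15 mg/kg.

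Among further genes of the pathway, Tmprss6, Hfe and Slc40a1 were measured and did not pass at any dose. Tmprss6, the protease that cleaves hemojuvelin, gave log2 fold changes of -0.08, 0.05 and -0.03. Hfe, a partner of the transferrin receptors, gave -0.03, 0.05 and 0.01. Slc40a1, ferroportin, the target of hepcidin, gave -0.02, -0.04 and 0.05, with medians of 29.7, 28.7, 28.5 and 29.1.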

How the data were processed

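Liver RNA of 54 mice was made into QuantSeq 3′ mRNA-Seq libraries, and nf-core/rnaseq 3.14.0 (STAR, RSEM and Salmon) was run on the reads by the authors, with GRCm38 as the genome. The deposited signal is a table of values named TPM by the authors, which in every sample are whole multiples of 1 step (0.764 to 1.11, within 6.66e-05 of a whole number of steps), that is, whole-number TPM divided by a size factor per sample. Totals ran from 747258 to 1076439. TPM divides by transcript length, whereas a 3′ library gives reads from 1 end of each transcript, and depth is not kept, so no count test and no counting interval was possible. The annotation release and strand setting are not given in the sources used here.

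Groups were taken from the labels, and the labels used here give no batch. The test was limma 3.58.1 (lmFit, eBayes with a trend, R 4.3.3) on log2(value + 1), a single fit holding all 4 groups and the 11431 rows (56.7%) whose mean reached 1. Benjamini-Hochberg adjustment ran over all of them, and calls were made at an adjusted p under 0.05. Correlations with Hamp used residuals from group means, with 100000 permutations within groups (smallest p 1e-05). The members and lists were chosen with earlier results of these data known. Named are the 10 members, list genes called at a dose (at most 20 a contrast, with their values in the other contrasts) and the 8 genes most like Hamp. Chosen after their values were seen were Id3 at the doses, Bmp2, Tmprss6, Hfe, Slc40a1, Hpx, Blvrb, Tspo, Ciapin1, Ftl1-ps2 and the called cell type markers. The fit was tested on simulated data. Positions, transcripts and lengths are from GENCODE M21 (GRCm38), and promoters are from RefSeq, which held 7 of the members. Those of Id1, Smad7 and Trf are not used here. The coding sequences of the hepcidin genes are not reported here. The authors tested genes with DESeq2, which was not repeated.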

Additional observations from a re-analysis of the deposited data

How the results depend on the processing

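The values rest on 13 or 14 mice a group and on the authors' scaling, and depth is unknown. The alternatives were pseudocounts of 0.1 and 5, no filter or a minimum mean of 5, quantile normalization, a robust eBayes, array quality weights, only the 2 groups compared, a block for the replicate number, a rank-sum test, a log2 fold change beyond 0.5, and each mouse left out. Leaving out the 8 libraries, leaving out the 5 of lowest total at 1.5 mg/kg and the length covariate were chosen after seeing the data. The replicate numbers did not pair the mice (79 pairs with the same number, mean r -0.0025, from -0.36 to 0.24, 12.7% above 0.1), and the replicate block left the counts of members called at 0, 0 and 1 against control and at 2 (1.5 against 15), 1 (1.5 against 150) and 2 (15 against 150 mg/kg).

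Members called at 15 mg/kg against control were 0, but 1 with a minimum mean of 5 and 1 without the 8 libraries, and 0 to 1 with each mouse left out. At 150 mg/kg the 1 call became 0 with no filter, in the rank-sum test and with a log2 fold change beyond 0.5. For 1.5 against 15 mg/kg the 2 calls became 0 with quantile normalization, in the rank-sum test, without the 8 libraries and with the length covariate, and 1 with no filter, array weights, only the groups compared and a log2 fold change beyond 0.5. They were 1 to 2 with each mouse left out (Ftl1 was lost without replicate 5 at 1.5 or any of replicates 4, 5, 6, 7 and 8 at 15 mg/kg). For 1.5 against 150 mg/kg the 1 call became 2 with the length covariate (Fth1 lower), 2 without the 5 libraries (Hamp higher) and 0 with a log2 fold change beyond 0.5, and for 15 against 150 mg/kg the 2 calls became 1 with the latter, and leaving out 1 mouse gave 2 to 3, Ftl1 being added without replicate 1, 10, 11, 12 or 13 at 15 or replicate 10 at 150 mg/kg. Members associated with Hamp were 0, and 1 (Fth1) with quantile normalization. Causes were not tested.

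Most differences from control that changed sign did so near 0. Larger values after the change were those of ferritin, of Tfrc at 1.5 and 150 mg/kg and of Id1 at 15 mg/kg. At 1.5 mg/kg, Id1 gave -0.0157 without the 8 libraries and -0.0575 without the 5, and Tfrc gave -0.194 without the 5, -0.0026 with quantile normalization, -0.0061 with the block, -0.0103 without the 8 and -0.112 for medians in the rank-sum test. At 15 mg/kg, Id1 gave 0.101 with array weights, 0.0206 without the 8, 0.0381 with the covariate and 0.0197 for medians. Fth1 gave -0.0525 without the 8 and -0.0057 for medians. Ftl1 gave -0.0237 with array weights, -0.454 without the 8, -0.233 with the covariate and -0.135 for medians. At 150 mg/kg, Hamp2 gave 0.0875 without the 8 and 0.0287 for medians, Smad7 -0.0017 with a pseudocount of 0.1 and -0.0160 without the 8, Tfrc -0.0050, -0.0477 and (medians) -0.101, and Fth1 -0.0675 with quantile normalization. The correlation of Hamp and Hamp2 was -0.0394 with quantile normalization and -0.0435 without the 8, and that of Hamp and Ftl1 0.0543 without the 8. With each mouse left out, the ranges that crossed 0 were -0.0028 to 0.270 for Hamp, -0.0298 to 0.151 for Id1 and -0.0559 to 0.0636 for Tfrc at 1.5 mg/kg, -0.141 to 0.0996 for Id1 at 15 mg/kg, and -0.152 to 0.125 for Hamp2, -0.0276 to 0.0747 for Smad7 and -0.0667 to 0.0615 for Tfrc at 150 mg/kg.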

Other observations

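The serum amyloid A genes Saa1 and Saa2, acute-phase genes that inflammation raises in liver, were read beside Hamp after their values were seen. Across 54 mice and after subtraction of group means, Saa1 went against Hamp (Pearson r = -0.56, permutation p = 9e-05, Spearman rho = -0.55, permutation p = 8e-05, r = -0.57 without the 2 mice farthest from the median of Hamp), and so did Saa2 (r = -0.56, permutation p = 8e-05, rho = -0.56, permutation p = 0.00013, r = -0.57). Without the 8 libraries that stand apart r was -0.54 for both. Without the 5 libraries of low total at 1.5 mg/kg, in which Saa1 was 402 to 2721 against 34.3 to 93.4 in the other 8 of the dose, r was -0.38 for Saa1 and -0.37 for Saa2 (limma adjusted p = 0.398 and 0.409). Over all mice Saa1 had r = 0.51 with the stellate and -0.58 with the hepatocyte marker sum, and the part of these libraries and cell types was not tested. Within groups r of Saa1 was -0.46 in control, -0.74 at 1.5, -0.59 at 15 and -0.06 at 150 mg/kg, where the highest Saa1 value was 254, against 933, 2721 and 651 in control and at the lower doses. Lcn2 had r from -0.71 to -0.14 within groups, and 0.48 at 1.5 mg/kg without the 5 libraries.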
